A study of Mus musculus with 48 samples.

Results

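The genes described here are 6 neutrophil chemokines and receptors: the ligands Cxcl1, Cxcl2 and Cxcl3, their receptor Cxcr2, and the formyl peptide receptors Fpr1 and Fpr2. They were found by symbol, and all 6 were present among the 20300 genes listed for a mix of tumor cells and immune cells and among the 14363 genes listed for CD11b+ cells. CXCL1, CXCL2 and CXCL3 are small secreted proteins that bind CXCR2 on neutrophils and draw these cells from the blood along a gradient, and their short-lived transcripts are induced by inflammatory signals in macrophages, stromal cells and tumor cells. FPR1 and FPR2 sense formylated peptides shed by bacteria and by damaged mitochondria, and FPR2 also binds serum amyloid A and annexin A1. In gliomas the myeloid cells that enter from the blood, with the microglia of the brain, form a large part of the tumor mass.

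The cells came from tumors of the mouse glioma line GL261 in C57BL/6 mice, which the study's methods describe as 6-week-old males with tumor cells placed in the striatum. The tumor cells carried a short hairpin RNA, which was either a negative control (shNC) or targeted Selp, the gene of P-Selectin (shSELP), while the host cells of both groups were unmodified. The mix was collected at day 16 after inoculation, combined CD11b+ cells, other CD45+ cells and cancer cells in equal parts, and was sequenced as 2 shNC and 2 shSELP libraries. CD11b+ cells alone, taken at day 21 with magnetic beads, were sequenced as 1 library per group. Labels and methods differ on the reagent kit (version 2 and version 3), and the methods give day 17 and a pool of 3 brains per group. Whether both libraries of a group share a pool of brains is not told by either, so p-values measure a spread between libraries that may be technical. Of the 8 sequencing entries of the CD11b+ shSELP library, 7 have a description line that names the negative control, so each CD11b+ direction rests on the remaining labels.

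After a filter on cells, the mix held 2183 and 2179 shNC cells and 2190 and 2174 shSELP cells. Summed unique molecular identifiers (UMIs, each counting a captured RNA molecule) came to 22874762 and 22546742 for shNC and 17323095 and 25512125 for shSELP. The CD11b+ libraries held 2731 shNC and 2804 shSELP cells with 12532788 and 11406051 UMIs. Before the filter, 5 barcodes occurred in more than 1 library among the 9172 cells of the mix, and 3 among the 5724 CD11b+ cells. Selp itself had 17, 25, 21 and 21 UMIs over all cells of shNC 1, shNC 2, shSELP 1 and shSELP 2, and in tumor cells 1, 0, 0 and 1 UMIs. Counts this low show no knockdown, so groups are taken from the labels alone.

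Cells were assigned to classes by scores on fixed marker genes, with none of the 6 genes among the markers. A cell joined the class of its highest score, the mean over markers of the scaled level, when at least 4 of the 7 neutrophil markers, or 4 of the 8 markers of monocytes/macrophages, microglia or tumor cells, were also detected. Such a gate takes a range and not a type: of 71 neutrophil-gated cells of the mix 17 had exactly the needed 4 markers, and 39 more cells fell 1 marker short. The monocyte/macrophage gate held 2607 cells (238 at the needed number), the microglia gate 680 (92) and the tumor gate 496 (95). Neutrophil-gated cells carried a median of 131 UMIs of their own markers, 9 of the monocyte/macrophage markers and 0 of the microglia markers. Tumor-gated cells carried 32 UMIs of their own markers, 1 of the monocyte/macrophage list and 14 of the microglia list, which came mostly from Sparc.

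Neutrophil-gated cells were few, at 9 and 9 shNC cells and 32 and 21 shSELP cells of the mix. They made up 0.412% and 0.413% of the shNC cells and 1.46% and 0.966% of the shSELP cells, a difference between group means of 0.801 percentage points, which an exact permutation of 2 libraries against 2 cannot bring under 0.05. With a gate of 3 markers the mean shares were 0.894% in shNC and 1.63% in shSELP libraries. In CD11b+ cells the order was the opposite, with 13 of 2731 shNC cells (0.476%, exact 95% binomial interval 0.254% to 0.813%) and 2 of 2804 shSELP cells (0.0713%, 0.00864% to 0.257%). The gate of 3 markers held 17 shNC and 7 shSELP CD11b+ cells. In the mix the 9 cells of shNC 2 in the main gate stood apart. Their 7 neutrophil markers summed to 20972 CPM (UMIs scaled to a common total, within a class and library), led by S100a9, against 87510, 145244 and 87167 CPM in shNC 1, shSELP 1 and shSELP 2, which S100a8 led. Camp, a granule protein of maturing neutrophils, had 0 UMIs in the cells of shNC 2, which allows up to 104 CPM, and 9427, 12675 and 14104 CPM in the other libraries.

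**Figure D1:**
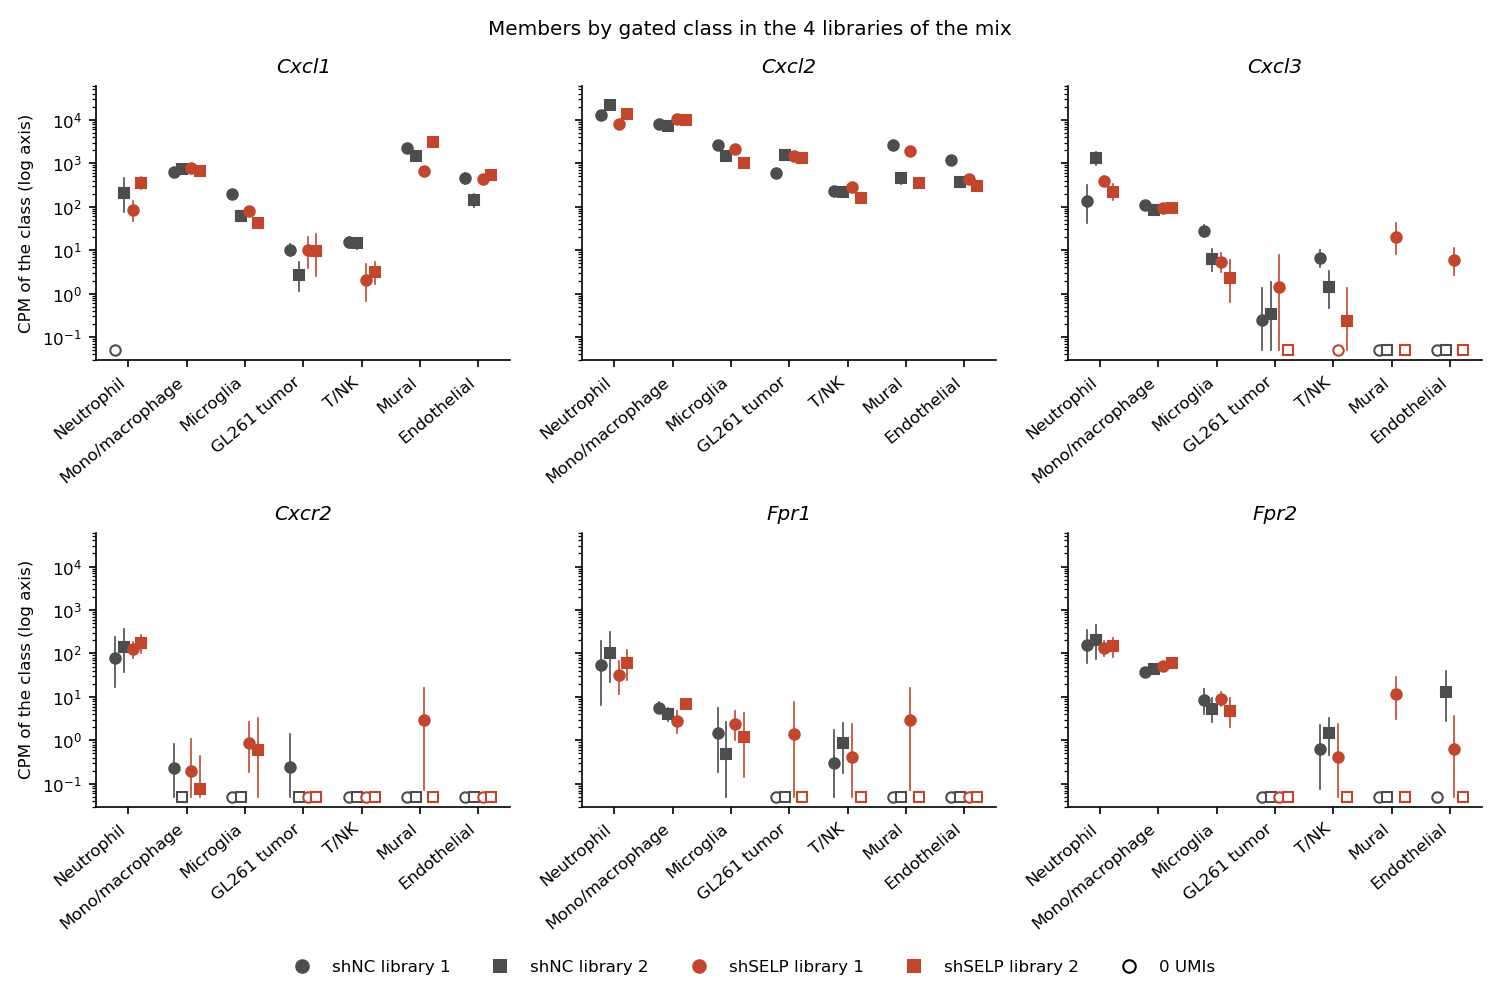
Level of each of the 6 genes in 7 gated classes of the mix, as CPM of the class on a log axis, with a point per library and its exact 95% Poisson interval as a line. Open symbols at the bottom of the axis mark 0 UMIs. Cxcl2 was highest in neutrophil-gated and monocyte/macrophage-gated cells, Cxcl1 overlapped between mural-gated and monocyte/macrophage-gated cells, and Cxcr2 was near 0 in the 6 classes drawn beside neutrophil-gated cells.

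Among the ligands, Cxcl2 was the most abundant transcript in all 4 classes compared here. In monocyte/macrophage-gated cells it had 8121 and 7173 CPM in shNC and 10275 and 9820 CPM in shSELP libraries. In neutrophil-gated cells it had 13005 and 21944 CPM in the shNC and 7988 and 13839 CPM in the shSELP libraries, so the ranges of these classes overlapped. Microglia-gated cells, at 2592, 1499, 2140 and 1017 CPM in the order shNC 1, shNC 2, shSELP 1 and shSELP 2, lay below the monocyte/macrophage-gated cells of each library. Over libraries the class means fell from 14194 ± 5777 CPM (SD) in neutrophil-gated through 8847 ± 1451 in monocyte/macrophage-gated, 1812 ± 694 in microglia-gated, 1359 ± 1141 in mural-gated and 1236 ± 444 in tumor-gated to 224 ± 50.1 CPM in T/NK-gated cells. Neutrophil-gated and monocyte/macrophage-gated cells did not differ beyond their spread, nor did microglia-gated, mural-gated and tumor-gated cells. The 14 basophil/mast-gated cells, found in 3 libraries, had the highest level, 62726, 31100 and 66647 CPM in shNC 1, shNC 2 and shSELP 2, and 0 UMIs of Cxcl1.

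By number of molecules the monocyte/macrophage-gated cells held 78.4% of the 397191 Cxcl2 UMIs of the mix, 75.6% of the 32476 Cxcl1 UMIs and 81.6% of the 4132 Cxcl3 UMIs. Neutrophil-gated cells held 1.08% of the Cxcl2 UMIs, because they were few. When each cell was thinned to 2000 UMIs, Cxcl2 was detected in 94.6%, 86.8%, 90.8% and 91.9% of monocyte/macrophage-gated cells in the 4 libraries. T/NK-gated cells, which should lack it, gave 12.5%, 12.1%, 7.41% and 10.9%. Unthinned, at median depths of 11194, 10918, 10340 and 16579 UMIs in monocyte/macrophage-gated and 6082.5, 6015.5, 4986 and 7632 UMIs in T/NK-gated cells, the shares were 97.0%, 93.3%, 93.8% and 96.2% against 25.0%, 26.7%, 20.4% and 30.7%. Cxcl2 detection was thus far above the share found in T/NK-gated cells, whose source was not tested. The 10% of monocyte/macrophage-gated cells with the most Cxcl2 carried 30.9%, 32.8%, 29.1% and 27.0% of its thinned UMIs, and in microglia-gated cells the top 10% carried 61.6%, 49.5%, 74.1% and 70.6%. Cxcl2 was therefore spread over most monocyte/macrophage-gated cells and concentrated in fewer microglia-gated cells, where 50.9%, 49.6%, 61.5% and 66.4% of thinned cells had no UMI.

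Tumor-gated cells carried Cxcl2 at 595, 1586, 1471 and 1292 CPM in shNC 1, shNC 2, shSELP 1 and shSELP 2, above the 236, 223, 279 and 158 CPM of T/NK-gated cells in each library. Thinned to 2000 UMIs, 31.5%, 53.2%, 43.9% and 58.6% of tumor-gated cells had a Cxcl2 UMI, against T/NK shares of 7.41% to 12.5%. Unthinned, at median depths of 16655, 17551, 17660 and 12960 UMIs, the shares were 69.4%, 79.7%, 65.9% and 80.6%. The macrophage marker Lyz2 had 80, 31.8, 162 and 61.2 CPM in the same tumor-gated cells and 8674, 10351, 12965 and 15526 CPM in monocyte/macrophage-gated cells. The part of macrophage RNA in the tumor-gated Cxcl2 level was not tested. Cxcl1 in tumor-gated cells, at 10.3, 2.65, 9.84 and 9.42 CPM, lay below T/NK-gated cells in the shNC libraries (15.1 and 14.7 CPM) and above them in the shSELP libraries (2.09 and 3.12 CPM), there on 7 and 4 UMIs, so it was not separated from background. Cxcl3 had 1, 1, 1 and 0 UMIs in tumor-gated cells, and Fpr2 had 0 in each library, which over the 4 libraries allows up to 0.365 CPM.

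Cxcl1 followed another order of classes. Mural-gated cells, the pericytes and smooth muscle of vessels, had 2267, 1502, 660 and 3152 CPM in shNC 1, shNC 2, shSELP 1 and shSELP 2, from 7, 11, 92 and 27 cells. Fibroblast-gated cells had 2698, 0, 997 and 1085 CPM, of which the 0 rests on 1 cell. Monocyte/macrophage-gated cells had 627, 730, 785 and 681 CPM, and endothelial-gated cells 448, 141, 427 and 528 CPM. Mean levels over libraries thus ran from 1895 ± 1064 CPM (SD) in mural-gated and 1195 ± 1116 in fibroblast-gated cells through 706 ± 67.6 in monocyte/macrophage-gated and 386 ± 169 in endothelial-gated cells to 160 ± 153 in neutrophil-gated and 94.1 ± 68.7 CPM in microglia-gated cells. The mural level lay below the monocyte/macrophage level in shSELP 1, and so did not differ from it beyond its spread. The fibroblast level lay above it in each library but shNC 2, where the 0 rests on 1 cell. The fibroblast mean and SD rest in part on that cell, and the other fibroblast levels on 12, 28 and 4 cells.

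The proportion of the ligands to each other differed between some classes and overlapped between others. For each 100 Cxcl2 UMIs, monocyte/macrophage-gated cells had 7.72, 10.2, 7.64 and 6.94 Cxcl1 UMIs in the 4 libraries. Neutrophil-gated cells had 0, 0.949, 1.04 and 2.53, and tumor-gated cells 1.73, 0.167, 0.669 and 0.729, below the monocyte/macrophage proportion in each library and overlapping each other. Microglia-gated cells had 7.51, 4.18, 3.63 and 4.08, close to monocyte/macrophage-gated cells in shNC 1. Mural-gated cells had 85.0, 327, 33.6 and 910, and endothelial-gated cells 37.5, 38.1, 97.1 and 172. T/NK-gated cells had 6.40, 6.58, 0.750 and 1.97, which in the shNC libraries lay nearer to monocyte/macrophage-gated cells and in the shSELP libraries nearer to tumor-gated cells.

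Cxcl3, the ligand with the fewest UMIs over all cells, had in neutrophil-gated cells 134 and 1319 CPM in the shNC and 401 and 222 CPM in the shSELP libraries (5, 38, 77 and 26 UMIs). Monocyte/macrophage-gated cells had 110, 82.1, 96.0 and 94.7 CPM, with little spread between libraries. Microglia-gated cells had 27.9, 6.31, 5.32 and 2.34 CPM from 37, 13, 18 and 4 UMIs. The basophil/mast-gated cells had 145, 448 and 590 CPM in shNC 1, shNC 2 and shSELP 2, from 1, 19 and 2 UMIs, and overlapped the neutrophil-gated level. The neutrophil-gated level lay above the monocyte/macrophage-gated level in each library, by a narrow margin in shNC 1.

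Cxcr2, the receptor for these ligands, had most of its UMIs in the neutrophil gate. Its neutrophil-gated level was 80.1, 139, 125 and 171 CPM in shNC 1, shNC 2, shSELP 1 and shSELP 2, from 3, 4, 24 and 20 UMIs. Neutrophil-gated cells, 71 of 8726 cells, held 51 of the 70 Cxcr2 UMIs of the mix (72.9%), and ungated cells held 7. The 14 basophil/mast-gated cells had 2, both in shNC 2 (47.2 CPM, exact 95% Poisson interval 5.71 to 170), which overlapped the neutrophil-gated level. Monocyte/macrophage-gated cells had 2, 0, 1 and 1 UMIs among 2607 cells, and T/NK-gated cells 0, which allows up to 0.226 CPM. In CD11b+ cells 11 of 18 Cxcr2 UMIs lay in the 15 neutrophil-gated cells, 9 of them in shNC and 2 in shSELP cells. Thinned to 2000 UMIs, 10 of 25 neutrophil-gated cells of shSELP 1 (40%, exact 95% binomial interval 21.1% to 61.3%) and 4 of 18 of shSELP 2 (22.2%, 6.41% to 47.6%) had a Cxcr2 UMI, against 0 of 378 and 0 of 441 T/NK-gated cells (upper bounds 0.971% and 0.833%). Unthinned the neutrophil-gated shares were 46.9% and 47.6% at median depths of 2956 and 2780 UMIs, and the shNC libraries had too few neutrophil-gated cells of that depth to be thinned.

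The formyl peptide receptors were less limited to the neutrophil gate. Fpr2 had 160, 208, 135 and 145 CPM in neutrophil-gated cells of the 4 libraries (6, 6, 26 and 17 UMIs) and 38.4, 44.1, 50.8 and 60.2 CPM in monocyte/macrophage-gated cells. Fpr1 had 53.4, 104, 31.2 and 59.8 CPM in neutrophil-gated cells, from 2, 3, 6 and 7 UMIs, and 5.68, 3.99, 2.77 and 7.0 CPM in monocyte/macrophage-gated cells. Per molecule the order turned, since monocyte/macrophage-gated cells held 76.7% of the 2279 Fpr2 UMIs and 69.1% of the 272 Fpr1 UMIs of the mix. Microglia-gated cells had 8.30, 5.34, 9.16 and 4.67 CPM of Fpr2, and the T/NK-gated mean was 0.618 ± 0.604 CPM (SD).

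Neutrophil-gated cells were tested against monocyte/macrophage-gated cells within libraries (edgeR quasi-likelihood test on summed UMIs with the library as a block, Benjamini-Hochberg adjustment over all genes tested). Apart from Cxcr2 and Fpr1, the test called Cxcl1, Cxcl3 and Fpr2 at an adjusted p under 0.05 and did not call Cxcl2, where 8.41% of the 8452 genes tested were called. Cxcr2 had 51 of 375415 UMIs in neutrophil-gated and 4 of 35323341 UMIs in monocyte/macrophage-gated cells. Its call is not counted here, because it passed the filter on low counts through the neutrophil-gated sums alone. The call of Fpr1 is not counted either, because its monocyte/macrophage-gated sums alone would not have passed that filter. Fpr1 was higher by 3.34 (standard error 0.61, edgeR adjusted p = 2.86e-06), Cxcl3 by 1.87 (0.30, 2.41e-08) and Fpr2 by 1.45 (0.36, 0.00190). Cxcl1 was lower, with a log2 fold change of -2.43 (standard error 0.31, edgeR adjusted p = 3.64e-13). Each of these 4 genes had its direction in 4 of 4 libraries. Cxcl2 had a log2 fold change of 0.37 (standard error 0.20, edgeR adjusted p = 0.276), and with a gate of 3 markers it was -0.02. The median log2 fold change over all genes tested was -0.30. Fpr1, Cxcl3, Fpr2 and Cxcl1 had the same direction in each alternative that gave a value.

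Microglia-gated cells were lower than monocyte/macrophage-gated cells for all 5 genes that passed the filter on low counts. EdgeR called Cxcl1, Cxcl2 and Fpr2, where 42.1% of all genes tested were called. The calls of Fpr1 and Cxcl3 are not counted, because their microglia-gated sums alone would not have passed that filter. The log2 fold changes were -3.57 for Cxcl3 (standard error 0.32, edgeR adjusted p = 3.79e-06), -3.23 for Cxcl1 (0.30, 4.64e-06), -2.92 for Fpr2 (0.19, 3.04e-07), -2.47 for Cxcl2 (0.21, 2.40e-06) and -1.71 for Fpr1 (0.43, 0.00685). Cxcr2, with 4 UMIs in each of these classes, was not tested. The macrophage markers in microglia-gated cells summed to 4462, 2477, 3041 and 2047 CPM in the 4 libraries (8 of 8 detected over all libraries, led by Lyz2), against 13259, 15333, 17869 and 20895 CPM in monocyte/macrophage-gated cells. Their part in the microglia-gated levels was not tested.

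**Figure D2:**
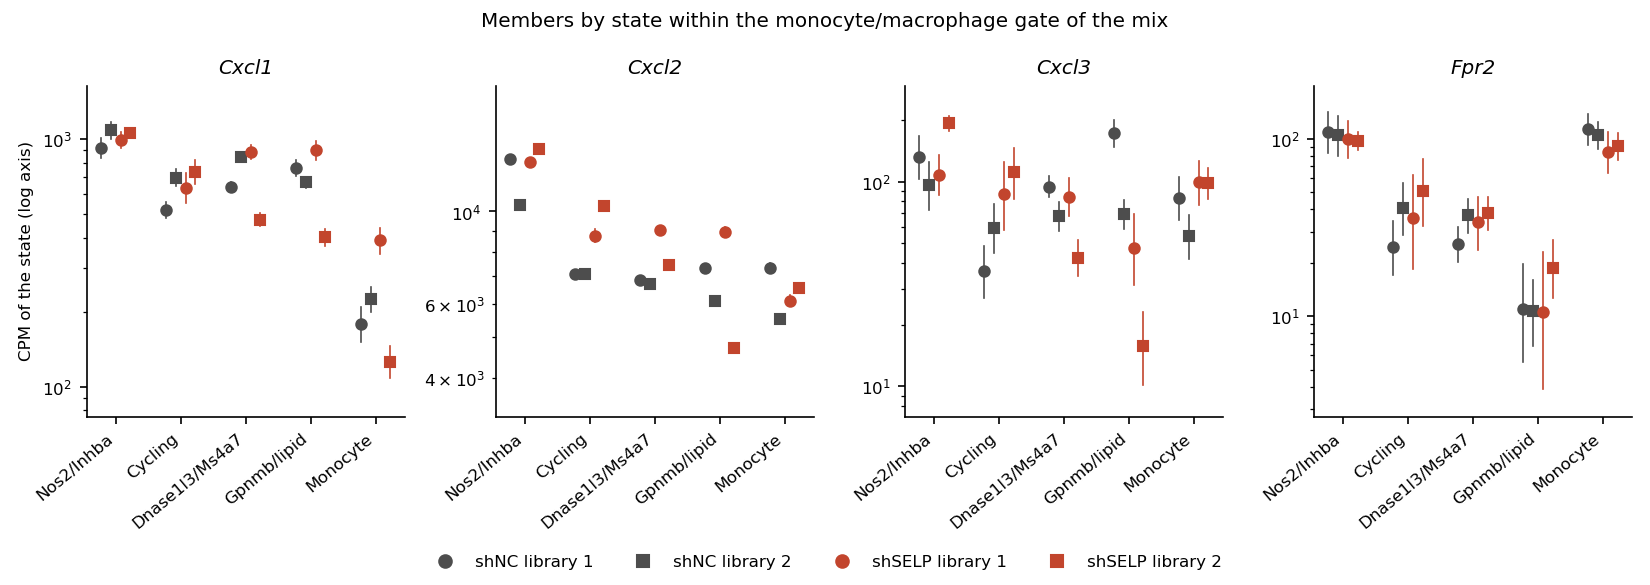
Level of Cxcl1, Cxcl2, Cxcl3 and Fpr2 in 5 states of the monocyte/macrophage-gated cells of the mix, as CPM of the state on log axes that differ between panels, with a point per library and its exact 95% Poisson interval as a line. The Monocyte state was lowest for Cxcl1 in each library and the Gpnmb/lipid state was lowest for Fpr2 in each library.

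Within the monocyte/macrophage gate the ligands and Fpr2 were distributed differently over states named by their leading markers. Among the 5 states given here Cxcl2 was highest in the Nos2/Inhba state, with 13364, 10338, 13170 and 14136 CPM in shNC 1, shNC 2, shSELP 1 and shSELP 2. The Monocyte state, at 7328, 5522, 6115 and 6570 CPM, lay below it in each library. The others had mean levels of 8314 ± 1550 CPM (SD, Cycling), 7505 ± 1069 (Dnase1l3/Ms4a7) and 6760 ± 1783 (Gpnmb/lipid), which overlapped.

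Cxcl1 separated the Monocyte state from the others. It had 178, 225, 389 and 126 CPM there, against 920, 1083, 994 and 1056 CPM in the Nos2/Inhba state. The states of mature macrophages lay between, as the Gpnmb/lipid state with 763, 668, 901 and 402 CPM. For each 100 Cxcl2 UMIs the Monocyte state had 2.43, 4.08, 6.37 and 1.92 Cxcl1 UMIs and the Gpnmb/lipid state 10.4, 10.9, 10.1 and 8.53. The Monocyte proportion was the lowest of the 5 states in each library, though in shSELP 1 by a narrow margin.

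Fpr2 had another distribution, with 114, 105, 84.8 and 91.0 CPM in the Monocyte state and 109, 105, 99.9 and 97.5 CPM in the Nos2/Inhba state. The Gpnmb/lipid state had 11, 10.7, 10.6 and 18.8 CPM, the lowest of the 5 states in each library. Fpr1 was highest in the Nos2/Inhba state, at 11.7 ± 6.23 CPM (SD over libraries, 59 UMIs), and lowest in the Gpnmb/lipid state, at 1.14 ± 1.3 CPM (6 UMIs). Cxcl3 in the Gpnmb/lipid state was 173 and 69.1 CPM in the shNC and 47.5 and 15.7 CPM in the shSELP libraries. There the shNC libraries lay above the shSELP libraries, whereas in the Cycling state they lay below (36.6 and 59.5 against 86.6 and 111 CPM). No test was run within states.

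The comparison of shSELP with shNC tumors asked whether the hairpin in the tumor cells went with other levels in each class. In monocyte/macrophage-gated cells the shSELP libraries lay above both shNC libraries for Cxcl2 (8121 and 7173 against 10275 and 9820 CPM) and for Fpr2 (38.4 and 44.1 against 50.8 and 60.2 CPM). These were 2 of 5 genes tested, where 15.2% of all genes tested lay above in this way, and 0 of 5 lay below, where 31.2% of all did. The log2 fold changes were 0.45 for Cxcl2 (standard error 0.11, edgeR quasi-likelihood, Benjamini-Hochberg adjusted p = 0.0797) and 0.51 for Fpr2 (standard error 0.12, edgeR adjusted p = 0.0775). EdgeR thus called 0 of the 5 genes, beside 1.39% of 10677 genes tested (148 genes, with 1522 at an unadjusted p under 0.05 and 152 calls by DESeq2). Cxcl1 had a log2 fold change of 0.17 (edgeR adjusted p = 0.529), Fpr1 of 0.22 and Cxcl3 of 0.05, within the spread between libraries. Cxcl2 passed the threshold in 3 of 13 alternatives, with DESeq2 (adjusted p = 0.0149), without a filter on low counts (4.58e-05) and with crossed replicate numbers as a block (0.0477). Over the 13 its adjusted p ran from 4.58e-05 to 0.283 and its log2 fold change from 0.34 to 0.58. Fpr2 kept its direction in 13 alternatives and passed in 2, with an adjusted p from 0.00287 to 0.824.

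The make-up of the monocyte/macrophage gate moved with the groups. The Nos2/Inhba state took 7.02% and 7.12% of the gate in shNC and 12.8% and 20.3% in shSELP libraries, and the Cycling state 10.7% and 7.12% against 4.85% and 3.12%. Within the Nos2/Inhba state the groups overlapped for Cxcl2, and its Fpr2 level was 109 and 105 CPM in shNC against 99.9 and 97.5 CPM in shSELP libraries. Within the Dnase1l3/Ms4a7 state Cxcl2 had 6841 and 6712 CPM in shNC and 9039 and 7428 CPM in shSELP libraries, and within the Cycling state 7086 and 7095 against 8757 and 10319 CPM. The groups overlapped for Cxcl2 in the Monocyte state (7328 and 5522 against 6115 and 6570 CPM) and in the Gpnmb/lipid state (7309 and 6111 against 8907 and 4710 CPM). Fpr2 was lower in the shSELP libraries in the Monocyte state (114 and 105 against 84.8 and 91.0 CPM), as in the Nos2/Inhba state and unlike in the whole gate. The part of the state shares in the gate-wide difference was not tested. The macrophage markers of the gate also differed, with 13259 and 15333 CPM in shNC and 17869 and 20895 CPM in shSELP libraries (8 of 8 detected in each library, led by Lyz2).

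In microglia-gated cells the ligands pointed the other way without a call, although each was called in 3 alternatives. Cxcl3 had 27.9 and 6.31 CPM in shNC and 5.32 and 2.34 CPM in shSELP libraries, so the groups did not overlap, and this was 1 of 4 genes tested, where 20.1% of all genes tested lay below in this way (0 of 4 lay above, beside 29.6%). Its log2 fold change was -1.96 (standard error 0.68, edgeR adjusted p = 0.161). Cxcl1 had 195 and 62.6 CPM in shNC and 77.7 and 41.5 CPM in shSELP libraries, which overlapped, with a log2 fold change of -1.08 (standard error 0.45, edgeR adjusted p = 0.231). Cxcl2 followed with -0.44 (standard error 0.32, edgeR adjusted p = 0.505), and edgeR called 0 of 4 genes, beside 1.92% of 8633 genes tested (166 genes, 1636 at an unadjusted p under 0.05, 127 by DESeq2). The shNC 1 library was the highest for all 3 ligands and also for the macrophage markers in this class (4462 CPM). Without shNC 2 edgeR called Cxcl3 (-2.80, adjusted p = 9.09e-07), Cxcl1 (-1.74, 3.68e-17) and Cxcl2 (-0.80, 0.00122), whereas without shNC 1 the Cxcl2 log2 fold change was 0.04. All 3 were also called without a filter on low counts (adjusted p = 7.82e-05, 5.02e-08 and 0.0168 for Cxcl3, Cxcl1 and Cxcl2) and with the replicate block (0.000664, 2.64e-05 and 0.0146). Over the alternatives the adjusted p ran up to 0.761, 0.954 and 0.984. With classes taken from clusters Cxcl3 had a log2 fold change of 0.42.

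In neutrophil-gated cells 1213 genes could be tested and edgeR called 0 of them, so 0% of all genes and 0 of 5 members (52 genes at an unadjusted p under 0.05, 0 by DESeq2). Cxcr2 had a log2 fold change of 0.64 (standard error 0.55, edgeR adjusted p = 0.938), and its shNC and shSELP libraries overlapped. Cxcl2 had -0.49 (standard error 0.54, edgeR adjusted p = 0.95), Cxcl3 -0.91 (standard error 0.84), Cxcl1 1.32 (standard error 1.15) and Fpr2 -0.18 (standard error 0.49). Fpr2 was the 1 gene of 5 with both shSELP libraries below both shNC libraries, where 24.6% of all genes tested lay below in this way and 12% above. Without shNC 2, the library whose neutrophil markers were low, the Cxcl3 log2 fold change was 1.35. Fpr1, with 18 UMIs, was not tested. The class had 37447, 28801, 192036 and 117131 UMIs in the 4 libraries, which limits what could be detected.

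In tumor-gated cells edgeR tested Cxcl2 and Cxcl1 and called 0 of 2, beside 0.0405% of 9879 genes tested (4 genes, 1096 at an unadjusted p under 0.05, 20 by DESeq2). Cxcl2, at 595 and 1586 CPM in shNC and 1471 and 1292 CPM in shSELP libraries, had a log2 fold change of 0.30 (standard error 0.37, edgeR adjusted p = 0.809). Its groups overlapped, and shNC 1 was the low library. Without shNC 1 the log2 fold change was -0.25, and without shNC 2 it was 1.11 (edgeR adjusted p = 0.00811). Of the 2 genes, 0 lay above and 0 below in both shSELP libraries, beside 25.2% and 19.4% of all genes tested.

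The difference in response between monocyte/macrophage-gated and neutrophil-gated cells was tested as an interaction. EdgeR called 0 of 6 genes, beside 0.117% of 9365 genes tested (11 genes, 398 at an unadjusted p under 0.05, 0 by DESeq2). For Cxcl2 the difference in log2 fold change was 0.70 (standard error 0.50, edgeR adjusted p = 0.948), and for Cxcl1 it was -1.33 (standard error 0.68, edgeR adjusted p = 0.948). The median over all genes tested was -0.72, so these values sit beside a general shift between the classes.

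**Figure D3:**
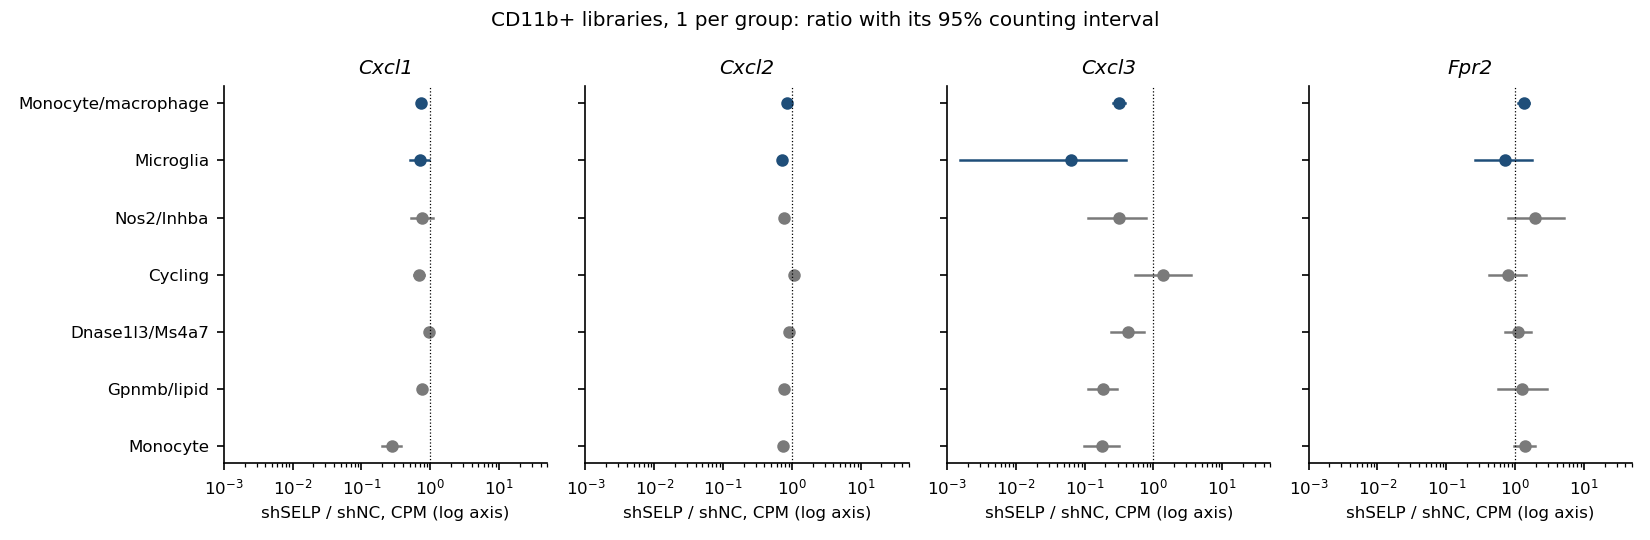
Ratio of the shSELP to the shNC library in CD11b+ cells for Cxcl1, Cxcl2, Cxcl3 and Fpr2, as a ratio of CPM on a log axis with its 95% counting interval, for 2 gated classes and 5 states of the monocyte/macrophage gate. The dotted line marks equal levels. Cxcl3 lay below it in both classes (0.317 and 0.0634), and Cxcl2 lay below it in both classes and in each state drawn but Cycling.

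CD11b+ cells, with 1 library per group, allow no test, and their ratios carry counting error only. In monocyte/macrophage-gated cells Cxcl3 had 65.7 CPM in shNC and 20.8 CPM in shSELP cells (428 and 133 UMIs), a ratio of 0.317 (95% counting interval 0.259 to 0.386). Cxcl1 had 435 and 318 CPM, a ratio of 0.732 (0.692 to 0.776), and Cxcl2 9343 and 7939 CPM, a ratio of 0.850 (0.840 to 0.860). All 3 ligands were thus lower in the shSELP library, Cxcl3 the most. Fpr2 had 28.4 and 37.7 CPM, a ratio of 1.33 (1.09 to 1.62), and Fpr1 a ratio of 1.48 (0.808 to 2.76). Of the 5 genes with at least 20 UMIs, 1 was lower by more than 1.5 times, beside 5.47% of all such genes, and 0 were higher, beside 12.8%.

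In CD11b+ microglia-gated cells Cxcl3 had 21 UMIs in shNC and 1 in shSELP cells, a ratio of 0.0634 (95% counting interval 0.00153 to 0.394). Cxcl2 had 3066 and 2194 CPM, a ratio of 0.716 (0.680 to 0.753), and Cxcl1 85.5 and 59.8 CPM, a ratio of 0.700 (0.506 to 0.960). Of 4 genes with at least 20 UMIs, 1 was lower by more than 1.5 times, beside 8.9% of all such genes, and 0 were higher, beside 11.9%. With classes from clusters the Cxcl1 ratio in microglia was 1.51. Neutrophil-gated CD11b+ cells, 13 and 2, had 613 and 25 UMIs of Cxcl2, 15225 and 10837 CPM, with a ratio of 0.712 (0.457 to 1.06). Cxcl3 there had 19 and 3 UMIs, a ratio of 2.76 (0.522 to 9.36), and Cxcr2 9 and 2 UMIs, a ratio of 3.88 (0.408 to 18.7). All 3 intervals included equal levels in CPM. The factors of edgeR's TMM scaling for these few cells were 0.574 in shNC and 1.74 in shSELP. With them the Cxcl2 interval lies below equal levels and Cxcl3 turns to lower in shSELP cells, so these ratios depend on the scaling.

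Within the states of CD11b+ monocyte/macrophage-gated cells Cxcl2 went from 17900 to 13634 CPM in Nos2/Inhba and from 8123 to 6068 CPM in Monocyte cells. Cxcl3 in the Monocyte state had 127 and 23.0 CPM (100 and 15 UMIs), and Cxcl1 there 255 and 70.4 CPM, a ratio of 0.276 (95% counting interval 0.196 to 0.382). Lower ligand levels were thus present inside states, with Cycling cells as an exception for Cxcl2 (1.06, 1.03 to 1.10) and Cxcl3 (1.37, 0.542 to 3.54). For Cxcl1 the interval included equal levels in the Dnase1l3/Ms4a7 state (0.953, 0.850 to 1.07) and in the Nos2/Inhba state (0.756, 0.527 to 1.08). The state shares were near each other, with Nos2/Inhba at 2.5% and 3.08% and Monocyte at 19.9% and 18.0% of the gate. In the whole monocyte/macrophage gate Fpr2 was higher in shSELP libraries in both experiments, without a call in the mix, while its ratio was 0.787 (0.422 to 1.44) in CD11b+ Cycling cells and 0.710 (0.261 to 1.78) in CD11b+ microglia-gated cells. For Cxcl2 the direction in the whole gate was the opposite of that in the mix. Day, cell selection and group size differed between the experiments and cannot be told apart. Immediate-early transcripts rise when cells are handled. A sum of 6 such genes (Fos, Jun, Junb, Egr1, Atf3 and Ier2), chosen after seeing the data, was 3975 CPM in shNC and 2769 CPM in shSELP CD11b+ monocyte/macrophage-gated cells, and 2784, 2893, 2799 and 3130 CPM in the mix. In CD11b+ microglia-gated cells it was 4308 and 3484 CPM. It was thus lower where the ligands were lower in these cells, but not in microglia-gated cells of the mix, where it was 5007 and 3841 CPM in shNC and 7620 and 6840 CPM in shSELP libraries. Its part in the levels was not tested.

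Cell by cell, Cxcl2 tended to be higher in cells with Cxcl1 or Cxcl3, and also in cells with Fpr2. In thinned monocyte/macrophage-gated cells of the mix, cells with a Cxcl1 UMI had a mean of 21.4, 18.0, 29.0 and 24.8 Cxcl2 UMIs in the 4 libraries, and cells without one 15.2, 12.3, 16.0 and 16.9. Cells with a Cxcl3 UMI had 25.4, 21.6, 26.1 and 28.5 Cxcl2 UMIs, and cells without one 15.9, 13.3, 19 and 17.9. Cxcl2 was thus higher in cells that carried another ligand in each library. The same held for the receptor gene Fpr2. Cells with an Fpr2 UMI had 21.6, 17.4, 25.2 and 25.6 Cxcl2 UMIs, and cells without one 16.5, 13.7, 19.2 and 18.1. Higher Cxcl2 was therefore not particular to cells with another ligand. Across the 723, 683, 447 and 731 cells Spearman's rho of Cxcl1 with Cxcl2 was 0.24, 0.29, 0.38 and 0.27. For Cxcl3 with Cxcl2 it was 0.20, 0.18, 0.15 and 0.19, and for Fpr2 with Cxcl2 0.09, 0.05, 0.08 and 0.14. These cells share a library and a fixed depth, and the values describe sparse counts.

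Across 31 sums of at least 20 cells, from 12 classes of the mix, the patterns of the genes were compared with those of 12142 genes on log2(CPM + 10), as a description in which sums share libraries and classes. Among the members Cxcr2 and Fpr1 had a Pearson r of 0.943, Cxcl3 and Fpr2 of 0.907 and Cxcl2 and Cxcl3 of 0.789, while Cxcl1 and Cxcl2 had 0.368. The genes most like Cxcl1 were Tmem51 (r = 0.846), Nr1h3, Tnfsf12, Mpp1 and Ecm1, and among those most like Cxcl2 were Gk (0.884), Tlr4, Pilra and Klra2. Cxcl3 was most like Gm5150 (0.965), Chil3, Tarm1, Trem1 and Cd300ld, and Fpr2 most like Trem1 (0.951), Gda, Mefv, Pilrb2 and Clec4d. Trem1, an activating receptor of myeloid cells, was the gene that both lists held. Cxcr2 was most like Ngp (0.997), Camp, Wfdc21, S100a9 and Mmp9, and Fpr1 most like F630028O10Rik (0.963), S100a8, AC110211.1, Gm13822 and Cd177. The Cxcr2 values rest on the 2 neutrophil sums with at least 20 cells, and S100a8, S100a9 and Mmp9 are markers of the gate.

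Other genes of the pathway were counted by lists. Between neutrophil-gated and monocyte/macrophage-gated cells edgeR called 4 of 6 tested genes of other chemokines and chemokine receptors as higher and 0 as lower, beside 8.41% of all genes tested (299 higher and 412 lower of 8452). These were Cxcr4 (log2 fold change 1.97, standard error 0.32, edgeR adjusted p = 8.03e-08), Ccl3 (1.37), Ccl6 (1.23) and Ccr1 (0.83). None of the 6 encodes a CXCR2 ligand. Of the leukotriene, complement and formyl peptide genes 2 of 7 were higher and 0 lower: Anxa1, a ligand of FPR2, by 2.90 (standard error 0.30, edgeR adjusted p = 1.63e-19) and Ltb4r1, the leukotriene B4 receptor, by 2.02. Of the inducers and regulators of the ligands 2 of 9 were higher (Il17ra by 1.44 and Tnf by 0.88) and 2 lower (Il1a by -0.76 and Il1b by -0.58). Of the signalling and adhesion genes Icam1 was higher by 1.21, Rac2 by 1.19 and Selplg, the gene of the P-Selectin ligand PSGL-1, by 0.93.

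Between microglia-gated and monocyte/macrophage-gated cells 2 of 6 chemokine genes were higher, Ccl4 by a log2 fold change of 2.01 and Ccl3 by 1.79, and 4 were lower, led by Ccr1 with -3.07, beside 42.1% of all genes tested (2083 higher and 2039 lower of 9783). Of the leukotriene list and the inducers 1 of 7 and 2 of 10 genes were higher and 4 and 3 lower. Among named genes of the lists Il1b, an inducer of the ligands, had -2.39 (standard error 0.19, edgeR adjusted p = 1.55e-06), Tnf 1.42, Ltb4r1 -3.54 and Selplg 1.70. Microglia-gated cells thus had more Ccl3, Ccl4 and Tnf and less of the CXCR2 ligands and Il1b.

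Between shSELP and shNC libraries the lists had 3 calls, all in microglia-gated cells, where 1.92% of all genes tested were called. There 1 of 6 chemokine genes, 1 of 6 genes of the leukotriene list, 0 of 9 inducers and 1 of 10 signalling genes were called. Over all genes the neutrophil-gated cells had 0 calls (52 at an unadjusted p under 0.05, 0 by DESeq2) and the tumor-gated cells 4, and differences between classes were not tested for these lists except in the interaction. Cxcr4 was lower (log2 fold change -1.07, standard error 0.22, edgeR adjusted p = 0.0448), and Saa3, a serum amyloid A that binds FPR2 (1.32, 0.23, 0.0257), and Selplg (0.80, 0.14, 0.0247) were higher. In the interaction test edgeR called Saa3, with a difference of 3.68 (standard error 0.66, edgeR adjusted p = 0.000109) between monocyte/macrophage-gated and neutrophil-gated cells. DESeq2 called 0 genes there, and so did edgeR without shSELP 1 and without shSELP 2. Saa3 in neutrophil-gated cells had 668, 0, 10.4 and 93.9 CPM in the 4 libraries, from 25, 0, 2 and 11 UMIs. Where no gene of a list was called, its most abundant genes were these. Neutrophil-gated cells had mean levels of 2568 CPM Ccl4, 2276 Ccl3 and 777 Ccr1, then 9051 Camp, 626 Alox5ap and 548 Anxa1, then 7498 Il1b, 3319 Nfkbia and 761 Il1a, and last 863 Gnai2, 527 Rac2 and 374 Icam1. Monocyte/macrophage-gated cells had 1373 CPM Ccl4, 659 Ccl3 and 358 Ccr1, then 386 Alox5ap, 246 C5ar1 and 166 Saa3, then 9354 Il1b, 1840 Nfkbia and 985 Il1a, and last 853 Gnai2, 347 Itgb2 and 212 Itgam. Both classes were thus rich in Il1b beside Cxcl2. Microglia-gated cells had 2051 CPM Il1b, 1706 Nfkbia and 1181 Il1a. Tumor-gated cells had 18.3 CPM Ccl4, 6.99 Ccl3 and 3.87 Cxcl12, then 320 Anxa1, 49.8 Lta4h and 4.57 Saa3, then 2217 Nfkbia, 439 Zfp36 and 282 Tnfaip3, and last 200 Gnai2, 122 Icam1 and 10.5 Grk2.

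The genes fall into 3 places of the genome (GRCm38). The ligand genes lie on the plus strand of chromosome 5, Cxcl3 from 90786103 to 90789600, Cxcl1 from 90891241 to 90893115 and Cxcl2 from 90903871 to 90905938, within 120 kb (119.835 kb). Cxcr2 lies on the plus strand of chromosome 1 from 74153989 to 74161246. Fpr1 (17876471 to 17883940, minus strand) and Fpr2 (17887824 to 17893952, plus strand) are neighbours on chromosome 17 that point away from each other, with starts 3.88 kb apart. The RefSeq promoter table of GRCm38.p6 matched all 6 genes. For the ligands, the last 80 bases before the RefSeq start of each are given 5′ to 3′ on the plus strand. The RefSeq start of Cxcl3 lies 2 bases before the start given above. Capitals mark the motifs GGGAATTTCCC and ATAAAAGG, a TATA-like run.
Cxcl1, chr5:90891161-90891240: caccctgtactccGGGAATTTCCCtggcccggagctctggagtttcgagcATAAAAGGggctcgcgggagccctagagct
Cxcl2, chr5:90903791-90903870: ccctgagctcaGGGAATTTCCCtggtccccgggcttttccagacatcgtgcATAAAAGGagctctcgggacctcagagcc
Cxcl3, chr5:90786021-90786100: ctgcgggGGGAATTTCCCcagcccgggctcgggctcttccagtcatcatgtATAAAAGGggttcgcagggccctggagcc

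The 11-letter motif began 67, 69 and 73 bases before the RefSeq start of Cxcl1, Cxcl2 and Cxcl3. Searched on both strands in the 250 bases before each start, it was found in 14 of 32851 promoters (0.0426%), of which 3 belonged to the ligands. ATAAAAGG began 30, 29 and 29 bases before the start and was found in 507 promoters (1.54%), among them that of Fpr2. Neither motif was found in the windows of Cxcr2 and Fpr1. The motifs were chosen after the ligand sequences were seen, and a match describes letters and not a site that is used.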

How the data were processed

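Per the labels and the deposited tables, droplet RNA was measured in cells of GL261 tumors, as 4 libraries of a cell mix and 2 libraries of CD11b+ cells, from 48 sequencing entries. The deposited counts are raw UMIs per gene and cell, which the authors made by aligning reads to mm10 and counting with Cell Ranger 1.3. Libraries were read from column prefixes, with 0 unmatched columns. The filter kept cells in which 500 genes or more were detected and mitochondrial UMIs did not exceed 10%.

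Classes came from the highest mean z-score of log-scaled levels over fixed markers (minimum score 0.25, with 4 of 7 or of 8 markers detected in the classes tested), and states of the monocyte/macrophage gate from at least 2 markers and a score of 0.3. Clusters for comparison were made without the 6 genes (scanpy 1.11.5, 2000 variable genes, 12 or 8 components, 20 neighbours, resolution 0.8). Scrublet called 61 of 8726 cells of the mix (0.699%) and 2 of 5535 CD11b+ cells (0.036%) as doublets. These were kept, and the 5% of cells with the highest scores were left out in an alternative.

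UMIs were summed per class and library and tested with edgeR 4.0.16 (quasi-likelihood, TMM, R 4.3.3), with DESeq2 1.42.0 as an alternative, at a Benjamini-Hochberg adjusted p under 0.05 over all genes tested. The steps were tested on simulated data. Comparisons were shSELP against shNC in 4 classes, neutrophil-gated or microglia-gated against monocyte/macrophage-gated cells, and the interaction. Intervals are exact Poisson or binomial at 95%. A count of 0 is given with the level of 3 UMIs as its limit. Ratios in CD11b+ cells needed 20 UMIs and a factor of 1.5, without a test. Shares used cells thinned to 2000 UMIs. Python 3.11.15, numpy 2.4.6, scipy 1.17.1 and pandas 2.3.3 were used.

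The genes, marker lists and pathway lists were chosen with earlier results of these data known. The gate settings, the stricter gate, the 3-marker gate and the crossed replicate numbers were chosen after seeing the data. Some results of the states, of the likeness comparison and of the pathway lists are not reported here.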

Additional observations from a re-analysis of the deposited data

Results flagged for a closer look

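Fpr2 differed in opposite directions between shSELP and shNC libraries of the mix in neutrophil-gated and monocyte/macrophage-gated cells, without a call in either. The shSELP levels were each lower than the shNC levels in neutrophil-gated cells and each higher in monocyte/macrophage-gated cells. The log2 ratios of mean CPM were -0.39 and 0.43, a difference of -0.82. The neutrophil-gated level rests on 6, 6, 26 and 17 UMIs. Without the filter on low counts the fitted neutrophil-gated log2 fold change was 0.0601. The interaction test, taken as monocyte/macrophage-gated minus neutrophil-gated cells, gave 0.42 (standard error 0.68, edgeR quasi-likelihood, Benjamini-Hochberg adjusted p = 0.948), so the difference did not pass the threshold.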

How the results depend on the processing

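Numbers of called genes between shSELP and shNC libraries depended on the processing. In neutrophil-gated cells edgeR called 0 genes (52 at an unadjusted p under 0.05, 0 by DESeq2), 5 without a filter on low counts, and 0 to 7 when each library was left out in turn (7 without shNC 1, 1 without shNC 2). In monocyte/macrophage-gated cells the 148 calls became 721 without the filter, 20 with thinned cells, 87 with clusters, 223 without the highest doublet scores and 9 to 146 with a library left out (9 without shNC 1, 80 without shNC 2). In microglia-gated cells the 166 calls became 700 without the filter, 77 with thinned cells, 27 with clusters, 87 with a 3-marker gate and 8 to 433 with a library left out (367 without shNC 1, 433 without shNC 2, 8 without shSELP 1). In tumor-gated cells the 4 calls became 20 with DESeq2, 263 without the filter, 1 with thinned cells, 7 with a stricter gate and 0 to 353 with a library left out (60 without shNC 1, 353 without shNC 2, 2 without shSELP 1, 0 without shSELP 2). Where a group keeps 1 library, that lone sample is assumed to vary like the other group.

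With the replicate block, in which libraries of the same number are paired, calls were 297 in monocyte/macrophage-gated, 784 in microglia-gated and 85 in tumor-gated cells. The labels do not tell whether libraries of the same number share a batch or a day. With crossed numbers, which pair libraries of different numbers, monocyte/macrophage-gated cells had 232 calls. They were not run for the other classes. In microglia-gated cells the replicate block called Cxcl3 (-2.23, edgeR adjusted p = 0.000664), Cxcl1 (-1.12, 2.64e-05) and Cxcl2 (-0.47, 0.0146). In monocyte/macrophage-gated cells it called Fpr2 (0.49, 0.0338).

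Between classes, the 711 calls of neutrophil-gated against monocyte/macrophage-gated cells became 428 with DESeq2, 246 with thinned cells and 413 to 632 with a library left out (427 without shSELP 1, 413 without shSELP 2). The 4122 calls of microglia-gated against monocyte/macrophage-gated cells became 2097 with thinned cells, which hold fewer UMIs. The 11 interaction calls became 0 with DESeq2, 2 with thinned cells and 0 to 12 with a library left out (4 without shNC 2, 0 without shSELP 1, 0 without shSELP 2).

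Some log2 fold changes turned direction, and none of the turned values was a call. Ranges are over each library left out in turn. In neutrophil-gated cells Cxcl3 ran from -1.77 to 1.35 (without shNC 1 and shNC 2) and turned to 0.92 with a 3-marker gate, Cxcl1 to -0.43 with a 3-marker gate and Fpr2 to 0.0601 without the filter. In monocyte/macrophage-gated cells Cxcl3 ran from -0.17 to 0.31 (without shNC 2 and shNC 1) and turned to -0.0313 with a stricter gate, and Fpr1 ran from -0.75 to 0.60 (without shSELP 2 and shSELP 1; without shNC 2, -0.0405). In microglia-gated cells Cxcl3 turned to 0.42 and Cxcl2 to 0.0267 with clusters. Cxcl2 ran there from -1.04 to 0.0437 (without shSELP 1 and shNC 1), and Fpr2 from -0.52 to 0.43 (without shSELP 1 and shNC 1, with -0.25 without shNC 2 and -0.0550 with the replicate block). In tumor-gated cells Cxcl2 ran from -0.25 to 1.11 (without shNC 1 and shNC 2). In neutrophil-gated against monocyte/macrophage-gated cells Cxcl2 turned to -0.0199 with a 3-marker gate. In the interaction Cxcr2 ran from -2.01 to 1.68 (without shNC 2 and shNC 1, with 0.0898 without shSELP 2) and turned to 0.15 with thinned cells. Cxcl3 ran from -1.60 to 1.87 (without shNC 2 and shNC 1) and turned to -0.70 with a 3-marker gate, Cxcl1 to 0.41 with a 3-marker gate and Cxcl2 to -0.38 with thinned cells. Fpr1 ran from -0.23 to 0.98 (without shNC 2 and shNC 1) and turned to -8.09 with thinned cells and -0.20 with a 3-marker gate. The cause was not tested.

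In CD11b+ cells TMM scaling moved the ratio of Cxcl1 in monocyte/macrophage-gated cells to 0.687 and that of Cxcl2 to 0.796, and thinning moved Cxcl2 to 0.881. The TMM factors of neutrophil-gated cells were 0.574 in shNC and 1.74 in shSELP. Scaled by these factors, each ratio given above for that class falls by more than 1.5 times. The Cxcl3 ratio then turns to lower in shSELP cells. In microglia-gated cells Cxcl2 moved to 0.671 with TMM, 0.756 with thinned cells and 0.758 with clusters, and Cxcl3 to 0 with thinned cells. Cxcl1 in microglia turned to 1.51 with clusters, and the cause was not tested. No cluster was named neutrophil, so clusters gave no value for neutrophil-gated cells.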
